A study of Mus musculus with 6 samples.

Results

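The genes *Ccl19*, *Ccl21a*, *Ccr7*, *Cxcl13*, *Cxcr5*, *Cxcl12*, *Cxcr4* and *Ackr3* encode the homeostatic lymphoid chemokines and their receptors, and they were examined in mouse tongue tumours with and without overexpressed LIGHT. They were listed by gene symbol for their place in this pathway, with earlier results of these data known, and all 8 members were found among the 18437 genes of the expression table. The tumours were grown in C57BL/6 mice by injecting the tongue with 4MOSC1, a carcinogen-induced mouse oral squamous carcinoma line, either as control cells (4MOSC1-con, 3 libraries) or as cells overexpressing LIGHT (4MOSC1-LIGHT, 3 libraries). LIGHT is the TNF superfamily ligand encoded by *Tnfsf14*, which binds the lymphotoxin beta receptor and the herpesvirus entry mediator. Both groups share the strain, the parental line and the injection site, and the labels tie no library to an animal, so p-values measure only the spread between these samples. The sources used here give no age of the mice, time of sampling or vector, and do not say whether the lines were clones. Values are TPM, a relative abundance of transcripts corrected for their length, which keeps no sequencing depth.

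Homeostatic chemokines place immune cells inside lymphoid tissue rather than calling them to acute inflammation. CCL19 and CCL21, made by stromal cells, dendritic cells and lymphatic or high endothelial vessels, draw T cells and mature dendritic cells through CCR7, CXCL13 draws B cells and follicular helper T cells through CXCR5, and CXCL12 acts on leukocytes and progenitors through CXCR4 while the atypical receptor ACKR3 binds it and removes it. In lymph node development, lymphotoxin beta receptor signalling through the noncanonical NF-kB pathway induces CCL19, CCL21 and CXCL13 in stromal cells. The study's title concerns tertiary lymphoid structures, the lymph node-like aggregates that form in inflamed tissue, in head and neck cancer.

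The near-identical *Ccl21* genes limit how a *Ccl21a* value can be read. Mouse chromosome 4 carries several copies of the gene, of which *Ccl21a* (from 42772860 to 42773993, minus strand, GRCm38 with GENCODE M21) encodes the serine form of CCL21 that lymphoid stroma makes and the others encode a leucine form. The coding sequence is 402 bases long in *Ccl21a*, *Ccl21b*, *Gm10591*, *Gm13304* and *Gm21541*, the last being the gene that RefSeq calls *Ccl21d* (from 41903610 to 41904743, plus strand). The 4 copies were identical to each other over the coding bases and differed from *Ccl21a* by 2 substitutions, T84A and C194T (the *Ccl21a* base, the position counted from the A of the start codon, then the copy's base). Coding bases 70 to 210 are shown for *Ccl21a* and for *Ccl21d*, with the 2 differing bases in capitals.
Ccl21a: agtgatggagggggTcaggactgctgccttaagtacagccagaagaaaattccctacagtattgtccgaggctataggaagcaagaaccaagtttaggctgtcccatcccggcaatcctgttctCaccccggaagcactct
Ccl21d: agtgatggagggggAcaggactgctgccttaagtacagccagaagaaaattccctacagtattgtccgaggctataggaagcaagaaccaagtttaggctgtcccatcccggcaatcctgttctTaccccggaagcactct
Over the whole transcript of 870 bases the pair differed at 6 positions, and 388 of 771 windows of 100 bases (50.3%) were the same in both. The sources used here give neither the read length nor the rule for shared reads, and a read from such a window cannot be assigned to 1 gene by its sequence.

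Promoter sequences were in the RefSeq table (GRCm38.p6) for 6 of the 8 members, each covering 250 bases before and 50 after the start of the gene. A loose kB core, the kind of site that NF-kB dimers bind, spelled here as GGG, any 5 bases and CC, was found in *Ccl19* (position -250), *Cxcl13* (-63) and *Cxcl12* (-36, on the other strand). It is common, and 50.8% of the 32851 promoters of that length held it on either strand. The TATA box motif TATAAA was found in *Cxcl13* (-46), *Cxcr4* (-30) and *Ackr3* (-8). Of all promoters 13.6% held it on either strand, and both searches took a match at any position of the window. The stretches that hold the kB cores of *Ccl19* and *Cxcl13* are shown with motif matches in capitals, positions -250 to -213 of *Ccl19* (chr4:42756578-42756615, minus strand) and -80 to -1 of *Cxcl13* (chr5:95956859-95956938, plus strand).
Ccl19: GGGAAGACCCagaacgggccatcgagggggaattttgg
Cxcl13: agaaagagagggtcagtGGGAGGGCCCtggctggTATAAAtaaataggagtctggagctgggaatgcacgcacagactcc
A match describes the letters of a window and does not show a factor bound there. *Ccl21a* held neither motif in its window.

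The groups matched their labels at the overexpressed gene, since *Tnfsf14* stood at 0.66, 0.53 and 0.79 TPM in the control libraries and at 26.24, 25.91 and 23.87 TPM in the LIGHT libraries. Epithelial content was visible in the basal keratinocyte list (*Krt5*, *Krt14* and 5 others), whose summed level lay between 15890 and 18525 TPM in the control group and between 11958 and 15690 TPM in the LIGHT group. These markers do not tell carcinoma from host epithelium. B cell genes were low: the 7 markers summed to between 0.64 and 1.79 TPM in the control group and between 2.19 and 2.37 TPM in the LIGHT group, 6 of the 7 stayed under 1 TPM in every library, and *Ms4a1*, which encodes CD20, averaged 0 TPM in the control group and 0.0433 TPM in the LIGHT group. Of the B cell sum, *Cd79b* held 0.17, 0.22 and 0.16 TPM in the control group and 1.29, 1.32 and 0.92 TPM in the LIGHT group, without overlap. *Ms4a1* and *Blk* (means of 0.0533 and 0.257 TPM) were also higher in every LIGHT library than in any control library. *Cd79a* and *Fcrla* had lower means in the LIGHT group (0.233 against 0.327 TPM and 0.443 against 0.58 TPM). In bulk tissue a change in the number of cells of a type and a change in the RNA per cell cannot be told apart.

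Of the 8 members, 6 reached 1 TPM in at least 3 libraries and were tested with limma on log2(TPM + 1) among 13167 genes. *Ccl21a*, *Ccl19*, *Ccr7* and *Cxcl12* were called higher in LIGHT tumours at an adjusted p under 0.05, and *Cxcr4* and *Ackr3* were not called. The number called was 1 with a skeletal muscle covariate and 2 with a red blood cell covariate. With these covariates 699 and 976 of all genes tested were called higher, against 2325 without. Over all genes tested, 17.7% were called higher, 5.41% lower and 23.1% in either direction. In the 4 called members the 3 LIGHT libraries lay above the 3 control libraries, as they did in 29.6% of all genes tested, while 11.6% had all LIGHT libraries below. Counted over all 8 members, untested ones included, the LIGHT libraries lay above in 4, against 25.5% of the 18218 genes above 0 TPM in any library. No member was called lower, and none had a lower value at an unadjusted limma p under 0.05 (0 of 6). *Cxcl13* and *Cxcr5* stayed under 1 TPM in every library and were not tested in that fit.

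**Figure D1:**
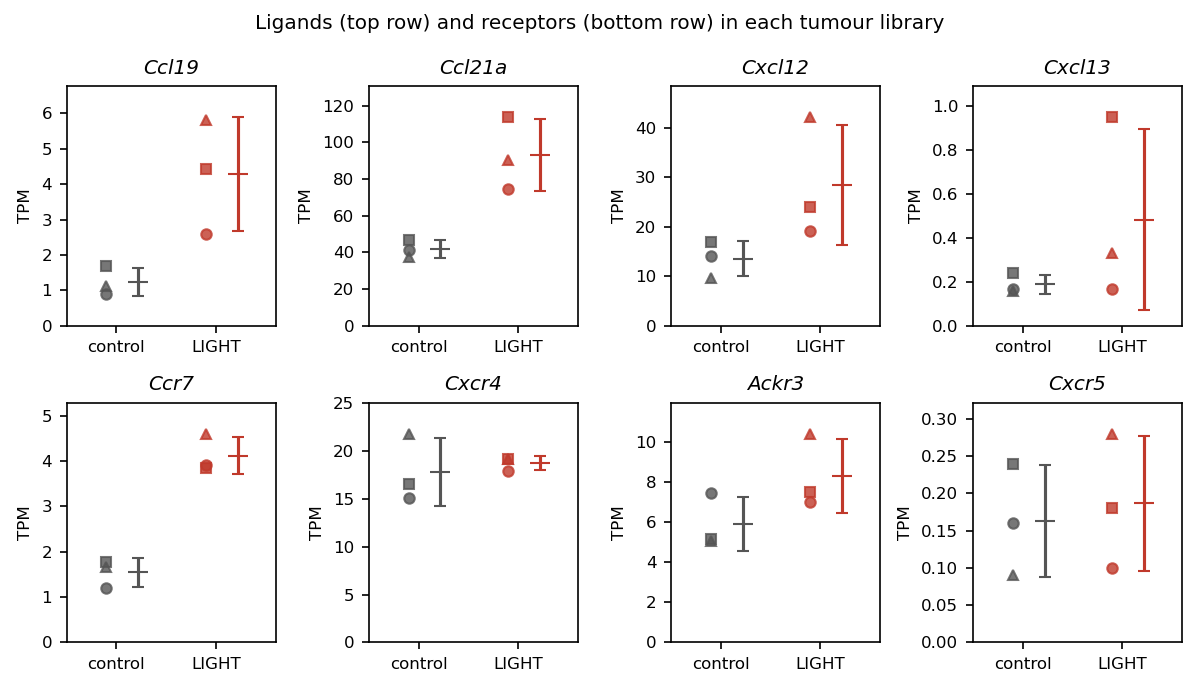
TPM of the 8 members in each library (vertical axes in TPM, from 0), control in grey and LIGHT in red, with circles, squares and triangles for replicates 1, 2 and 3 and bars for the mean and SD of 3 libraries. *Ccl21a*, *Ccl19*, *Ccr7* and *Cxcl12* show no overlap between the groups, while *Cxcr4*, *Ackr3*, *Cxcl13* and *Cxcr5* do.

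*Ccl21a*, the most abundant member, was at 41.36, 46.76 and 37.31 TPM in the control libraries and at 74.81, 113.63 and 90.39 TPM in the LIGHT libraries. Every LIGHT library exceeded every control library, and LIGHT replicate 2 was the highest. The mean rose from 41.8 ± 4.74 to 92.9 ± 19.5 TPM (SD, n = 3 each), 2.22-fold, with a log2 fold change of 1.12 (SE 0.16, 95% interval 0.75 to 1.48, limma adjusted p = 0.00403). Its call was lost with a skeletal muscle covariate (log2 fold change 0.94, adjusted p = 0.05025), and the summed skeletal muscle markers, which come with tongue tissue, ranged from 2620 to 4602 TPM in the control group and from 3922 to 6629 TPM in the LIGHT group. Among the 18437 genes of a library it ranked between 2516 and 2979 by TPM in the control group and between 1085 and 1683 in LIGHT tumours.

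The copies of *Ccl21a* changed with it. *Ccl21c*, *Ccl21d*, *Gm13304* and *Gm10591* were listed with the same values as one another in all 6 libraries, 5.32, 6.5 and 5.78 TPM in the control group and 14.35, 20.49 and 14.57 TPM in the LIGHT group. The 4 entries therefore hold 1 measurement, and its log2 fold change was 1.33 (SE 0.15, limma adjusted p = 0.00215). A single copy stood at 12.9%, 13.9% and 15.5% of the *Ccl21a* value in control and at 19.2%, 18.0% and 16.1% in LIGHT tumours. The sum of *Ccl21a* and the 4 copies was 65.3 ± 6.57 TPM in the control group and 159 ± 32.9 TPM in the LIGHT group (SD, n = 3 each), and with that sum in place of *Ccl21a* the log2 fold change was 1.25 (limma adjusted p = 0.00239). That sum adds the measurement of the copies 4 times. It counts reads repeatedly unless they were divided among the entries, and the rule for shared reads is not given. *Ccl21b*, the remaining copy with the same coding bases, was not analysed here.

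**Figure D2:**
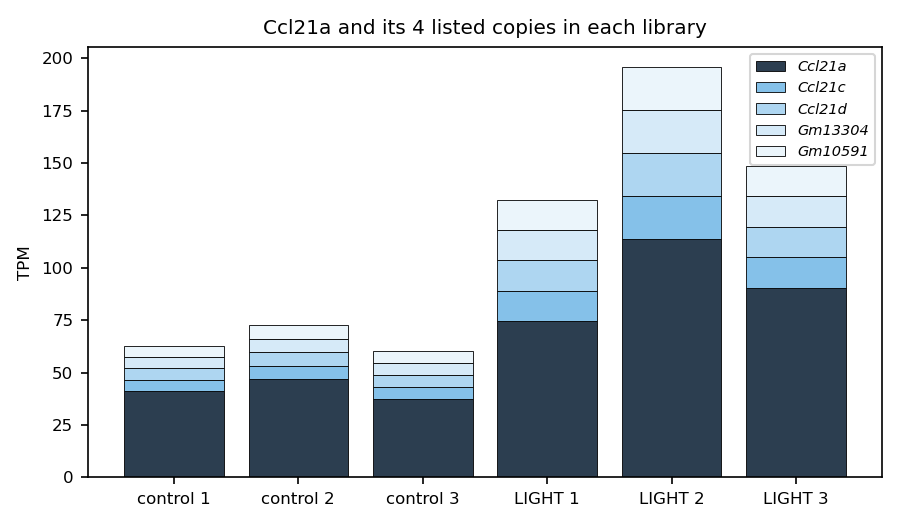
Stacked bars of the TPM of *Ccl21a* (dark) and its 4 listed copies (lighter shades) in each of the 6 libraries, from 0. The copies have equal heights within a library, and the whole column lies between 60.4 and 72.8 TPM in the control group and between 132 and 196 TPM in the LIGHT group. The column adds the equal value of the copies 4 times.

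*Ccl19*, the other CCR7 ligand, was far less abundant, at 0.91, 1.68 and 1.12 TPM in the control group and 2.60, 4.43 and 5.81 TPM in the LIGHT group. The lowest LIGHT library was above the highest control library, and LIGHT replicate 3 was the highest. The mean rose from 1.24 ± 0.40 to 4.28 ± 1.61 TPM (SD, n = 3 each), 3.46-fold, with a log2 fold change of 1.21 (SE 0.24, 95% interval 0.64 to 1.77, limma adjusted p = 0.0128). Its call was lost with a skeletal muscle covariate (log2 fold change 1.28, adjusted p = 0.0846) and with a red blood cell covariate (0.83, adjusted p = 0.0546), and the summed red blood cell markers ranged from 70 to 453 TPM in the control group and from 119 to 2086 TPM in the LIGHT group. The fold change on the log2(TPM + 1) scale understates the change of a gene this low, and it was 1.68 with a pseudocount of 0.1. *Ccl19* lies on chromosome 4 from 42754525 to 42756365 (GRCm38.p6), close to *Ccl21a*.

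*Ccr7*, the receptor for both, was at 1.19, 1.78 and 1.66 TPM in the control group and 3.91, 3.85 and 4.6 TPM in the LIGHT group. The 3 LIGHT libraries lay close together and clear of the controls. The mean rose from 1.54 ± 0.31 to 4.12 ± 0.42 TPM (SD, n = 3 each), 2.67-fold, with a log2 fold change of 1.01 (SE 0.13, 95% interval 0.70 to 1.32, limma adjusted p = 0.00319). It was the only one of the tested members whose call was kept under every one of its 17 alternative settings, with adjusted p from 0.00224 to 0.0262. *Ccr7* failed the filter at 5 TPM, which is not among the 17. The setting that sums *Ccl21a* with its copies is among them and left the values of *Ccr7* unchanged. Its locus is on chromosome 11, from 99144199 to 99155077 in GRCm38.p6.

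The ligands were then compared with the receptor within libraries. The log2 ratio of *Ccl21a* to *Ccr7* was 4.07 ± 0.21 in control and 4.18 ± 0.33 in LIGHT tumours, that of *Ccl19* to *Ccr7* was -0.19 ± 0.14 and 0.00 ± 0.39, and that of *Ccl19* to *Ccl21a* was -4.27 ± 0.18 and -4.18 ± 0.38 (SD, n = 3 each, ratios of TPM + 1). The exact two-sided permutation p of these differences was 0.7, 0.5 and 0.8. Each of the 3 ratios overlapped between the groups, which does not show that the genes changed equally, and the difference in the *Ccl21a* to *Ccr7* ratio changed sign with the pseudocount (0.11 with 1 TPM, -0.24 with 0.1 TPM).

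*Cxcl12*, a chemokine of fibroblasts and vessel walls, was at 14.15, 16.85 and 9.73 TPM in the control group and 19.19, 24.05 and 42.08 TPM in the LIGHT group. The groups did not overlap, but LIGHT replicate 3 was far above the other 2 LIGHT libraries. The mean was 13.6 ± 3.59 TPM in the control group and 28.4 ± 12.1 TPM in the LIGHT group (SD, n = 3 each), 2.09-fold higher. The log2 fold change was 0.97 (SE 0.29, 95% interval 0.29 to 1.65) with limma adjusted p = 0.049. That call was lost in 14 of 18 alternative settings (adjusted p from 0.0297 to 0.243 over all 18), among them without LIGHT replicate 3 (log2 fold change 0.66, adjusted p = 0.104) and after trimmed-mean scaling (0.84, adjusted p = 0.0722). Of the 6 fits that left out 1 library, the one without LIGHT replicate 1 kept the call and the other 5 did not.

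*Cxcr4*, the signalling receptor for CXCL12, was at 15.03, 16.55 and 21.78 TPM in the control group and 17.86, 19.16 and 19.12 TPM in the LIGHT group. The LIGHT libraries lay within the range of the controls, and the highest value was in control replicate 3. The log2 fold change was 0.09 (SE 0.14, 95% interval -0.23 to 0.40, limma adjusted p = 0.691), and its sign changed with trimmed-mean scaling (-0.04), with quantile normalization (-0.01) and without control replicate 1 (-0.02). The interval holds changes of up to 0.40 on the log2 scale, so a small difference was not detectable with these libraries.

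*Ackr3*, the atypical receptor that scavenges CXCL12, was at 7.43, 5.18 and 5.08 TPM in the control group and 7.02, 7.48 and 10.40 TPM in the LIGHT group. Control replicate 1 lay inside the LIGHT range. The means were 5.90 ± 1.33 and 8.30 ± 1.83 TPM (SD, n = 3 each), and the log2 fold change of 0.43 (SE 0.18, 95% interval 0.01 to 0.85) did not pass after adjustment (limma unadjusted p = 0.0461, adjusted p = 0.128). It missed the threshold under all 18 of its alternative settings.

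The log2 ratio of *Cxcl12* to *Cxcr4* was -0.08, 0.02 and -1.09 in control and 0.10, 0.31 and 1.10 in LIGHT tumours, a difference of 0.88 with no overlap. It was 0.53 without control replicate 3 and 0.59 without LIGHT replicate 3. The exact two-sided permutation p was 0.1, the smallest that 3 against 3 allows, and 0.244 after Benjamini-Hochberg adjustment over the 22 ratios computed. For *Cxcl12* to *Ackr3* the groups overlapped, at 1.065 ± 0.403 and 1.604 ± 0.295 (SD, n = 3 each, exact permutation p = 0.2).

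*Cxcl13*, the B cell attractant, was listed at 0.17, 0.24 and 0.16 TPM in the control group and 0.17, 0.95 and 0.33 TPM in the LIGHT group. LIGHT replicate 2 alone stood out, and LIGHT replicate 1 was at the level of the controls. The exact two-sided permutation test of the difference in mean TPM gave p = 0.3, and limma without a filter on low values gave an adjusted p of 0.333. Its receptor *Cxcr5* was at 0.16, 0.24 and 0.09 TPM in the control group and 0.10, 0.18 and 0.28 TPM in the LIGHT group, with full overlap (exact permutation p = 0.7, and 0.831 adjusted without the filter). A change in either gene was not detectable at these levels, which allow no statement that it is absent. Of the 3 follicular dendritic cell markers, *Cr2* and *Fcer2a* were near 0, with means of 0 and 0.00333 TPM for *Cr2* and of 0.127 and 0.223 TPM for *Fcer2a* in control and LIGHT tumours. The third, *Mfge8*, which many other cell types also express, rose from 53.9 ± 2.50 to 156 ± 22.7 TPM (SD, n = 3 each, log2 fold change 1.51, limma adjusted p = 0.00061).

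**Figure D3:**
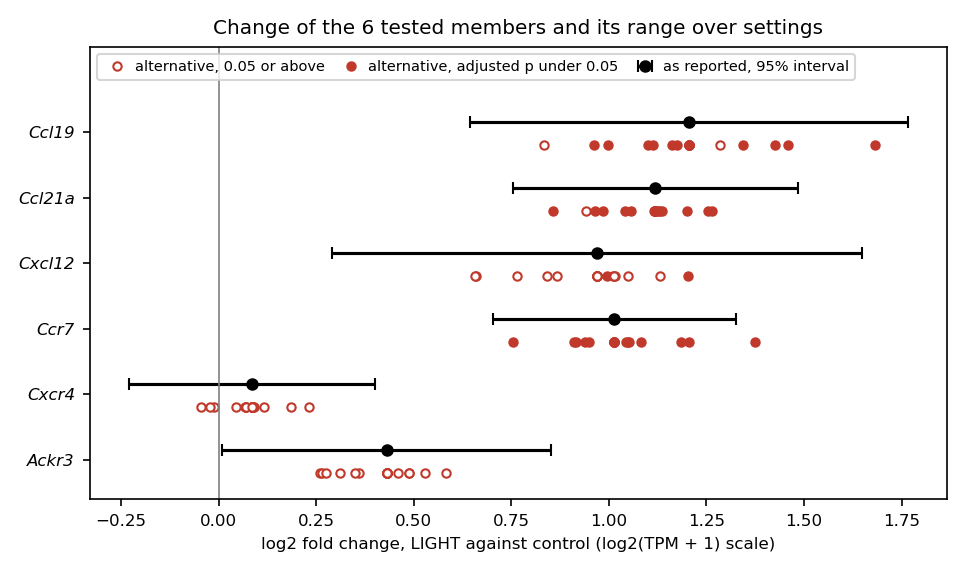
Log2 fold change of the 6 tested members, LIGHT against control, on the log2(TPM + 1) scale (horizontal axis), with the 95% interval in black and the value under each alternative setting in red, filled where the adjusted p was under 0.05. *Ccr7* is filled throughout, *Cxcl12* is mostly open, and the *Cxcr4* interval spans 0 from -0.23 to 0.40.

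Ordered by mean TPM, the control tumours ran *Ccl21a*, *Cxcr4*, *Cxcl12*, *Ackr3*, *Ccr7*, *Ccl19*, *Cxcl13* and *Cxcr5*. Neighbours overlapped in their library values in 3 cases, *Cxcr4* with *Cxcl12*, *Ccr7* with *Ccl19* and *Cxcl13* with *Cxcr5*. In LIGHT tumours *Cxcl12* stood above *Cxcr4* (lowest *Cxcl12* library 19.19 TPM, highest *Cxcr4* library 19.16 TPM) while *Ccl19* with *Ccr7* and *Cxcl13* with *Cxcr5* again overlapped.

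Summed TPM over 39 chemokine genes was 2048 ± 203 in control and 4646 ± 667 in LIGHT tumours (SD, n = 3 each). That total also adds the 4 equal entries of the *Ccl21a* copies. *Ccl19*, *Ccl21a*, *Cxcl13* and *Cxcl12* together made up 2.75%, 2.92% and 2.63% of it in control and 1.83%, 3.03% and 3.51% in LIGHT tumours, with overlap. Among 22 chemokine receptor genes *Cxcr4* supplied 23.4%, 20.1% and 27.6% of the summed TPM in the control group and 14.8%, 15.3% and 15.5% in LIGHT tumours, without overlap, while *Ccr7* supplied 1.85%, 2.17% and 2.10% and then 3.24%, 3.07% and 3.72%. These shares were chosen after the values had been seen and were not tested.

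The members were then set against markers of the cells that could carry them, as log2 ratios of TPM + 1 within each library, a measure that does not depend on how libraries are scaled against each other except through the pseudocount. T cell markers differed between the groups themselves: 7 of 8 were called higher, against 17.7% of all genes tested. Their summed level was between 53.9 and 118 TPM in the control group and between 183 and 226 TPM in the LIGHT group. *Ccr7* relative to the mean of these 8 markers was -1.81 ± 0.38 in control and -2.05 ± 0.23 in LIGHT tumours, with overlap (exact permutation p = 0.4). Of the mature dendritic cell markers, 4 of 5 tested (*Ccl22*, *Ccl17*, *Cd83* and *Cacnb3*) were called higher. *Fscn1*, at means of 74.1 and 71.2 TPM, was not (log2 fold change -0.04). Relative to the mature dendritic cell markers *Ccr7* was at -1.25 ± 0.30 and -1.37 ± 0.12 (SD, n = 3 each, exact permutation p = 0.7). Relative to conventional dendritic cell markers it was higher in every LIGHT library, at 0.09, 0.41 and 0.39 against 0.80, 0.60 and 0.96, although 5 of those 6 markers failed the filter on low values. That difference of 0.49 (exact permutation p = 0.1) depended on the pseudocount and was 0.31 with 0.1 TPM (exact permutation p = 0.3). The part of T cell and dendritic cell content in the *Ccr7* rise was not tested beyond these ratios.

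*Ccl21a* had higher values relative to lymphatic markers in LIGHT tumours. Its log2 ratio to lymphatic endothelial genes (*Prox1*, *Lyve1*, *Flt4*, *Mmrn1* and *Reln*) was 4.51, 4.73 and 4.47 in control and 5.18, 5.53 and 5.43 in LIGHT tumours, a difference of 0.81 without overlap. The size of that difference depended on the pseudocount and was 0.55 with 0.1 TPM. These markers are low, and *Prox1* and *Reln* failed the filter on low values. The summed lymphatic level itself was between 4.13 and 5.44 TPM in the control group and between 6.18 and 9.03 TPM in the LIGHT group. Of 3 tested markers 1, *Flt4*, was called higher, beside 17.7% of all genes tested. Against blood endothelial markers the ratio overlapped (2.97 ± 0.31 and 3.55 ± 0.62, SD, n = 3 each, exact permutation p = 0.2). Of those 8 markers 1 (12.5%), *Vwf*, was called higher, a share under the 17.7% of all genes tested.

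*Ccl19* and *Cxcl12* were each higher relative to fibroblast markers, none of whose 8 genes was called in either direction by limma (0 at an unadjusted p under 0.05, and 23.1% of all genes tested were called). The difference was 0.90 for *Ccl19*, from -3.32 ± 0.40 to -2.42 ± 0.18, and 0.66 for *Cxcl12*, from -0.63 ± 0.23 to 0.03 ± 0.38 (SD, n = 3 each). Neither ratio overlapped between the groups. For *Cxcl12* the gap was narrow, from -0.36 in control replicate 2 to -0.30 in LIGHT replicate 2. Its difference was 0.45 without LIGHT replicate 3. *Cxcl12* relative to blood endothelial markers did overlap, at 1.39 ± 0.27 and 1.82 ± 0.38 (SD, n = 3 each, difference 0.43, exact permutation p = 0.2). LIGHT replicate 3, the highest library for *Cxcl12*, was also the highest for the endothelial genes *Pecam1* (38.23 TPM) and *Cdh5* (14.96 TPM). *Ccl19* relative to mature dendritic cell markers overlapped, at -1.44 ± 0.40 and -1.37 ± 0.32 (SD, n = 3 each, exact permutation p = 0.9).

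*Cxcr4* had lower values relative to pan-leukocyte, T cell and macrophage markers. Its log2 ratio to *Ptprc*, *Laptm5*, *Cd53* and *Cd52* was -1.35, -1.71 and -1.14 in control and -2.29, -2.26 and -2.05 in LIGHT tumours. All 4 of these pan-leukocyte genes were called higher, against 17.7% of all genes tested. The difference was -0.80 against leukocytes, -1.16 against T cells and -0.49 against macrophages, and the groups did not overlap in any of the 3. Of 5 neutrophil markers 0 were called higher and 0 lower, with a median log2 fold change of -0.04. No ratio of *Cxcr4* to them was computed. *Ackr3* relative to basal keratinocyte markers was higher by 0.68 without overlap, and relative to blood endothelium and fibroblasts it overlapped. The keratinocyte markers themselves had a median log2 fold change of -0.37 (0 of 7 called), and *Ackr3* alone was not called. Of the 22 ratios 9 had groups that did not overlap. Each of those 9 reached the smallest exact permutation p of 0.1 (0.244 adjusted), so none could pass a threshold of 0.05 in this design.

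**Figure D4:**
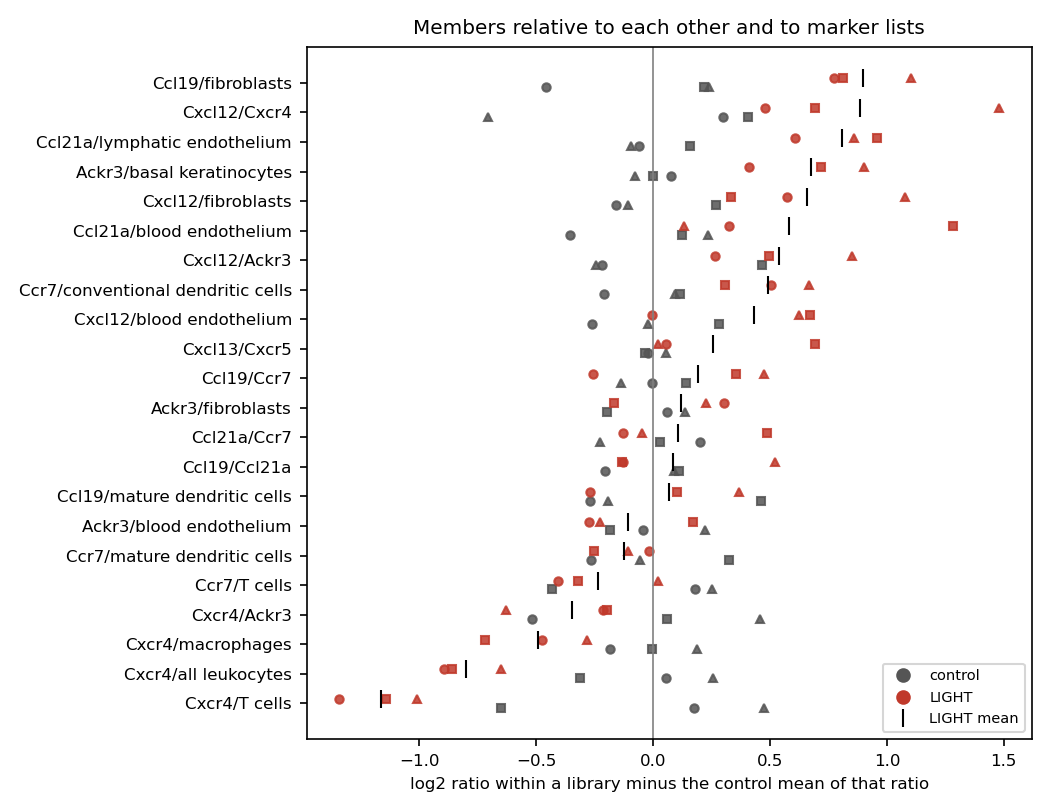
Log2 ratio of TPM + 1 within each library, minus the control mean of that ratio (horizontal axis), for the 22 ratios of members to each other and to marker lists, with control libraries in grey, LIGHT libraries in red, symbols for replicates and a black tick for the LIGHT mean. *Ccl19* to fibroblasts lies at the top with a difference of 0.90 and *Cxcr4* to T cells at the bottom with -1.16.

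Other genes of the pathway were read from the same fit by 4 lists, beside which 17.7% of all 13167 genes tested were called higher and 5.41% lower. Among related homeostatic chemokines and decoy receptors 4 of 10 tested genes were called higher and 0 lower (0 lower at an unadjusted limma p under 0.05), with a median log2 fold change of 0.39. *Dpp4*, the protease that trims and inactivates CXCL12, averaged 0.853 TPM in the control group and 2.6 TPM in the LIGHT group, and its log2 fold change was 0.95 with an adjusted p of 0.00489 from limma. It was under 1 TPM in all 3 control libraries, so it passed the filter through the LIGHT libraries. *Ackr1*, an atypical receptor of venules and red cells, rose from 4.15 to 7.29 TPM and *Ccl27a*, a skin chemokine, from 23.4 to 30.9 TPM. The remaining call was the *Ccl21c* entry described above. *Ackr4*, the decoy receptor for CCL19 and CCL21, averaged 0.38 TPM in the control group and 1.06 TPM in the LIGHT group and failed the filter, and *Ackr2*, another decoy receptor, was at 0.76 and 1.35 TPM without a call (limma adjusted p = 0.0781). The *Ackr1* and *Ccl27a* calls rest on adjusted p values of 0.0328 and 0.0419, and the number called fell to 1 without LIGHT replicate 2 or without LIGHT replicate 3 and to 2 without any 1 control replicate or with either covariate. Over all genes tested, the number higher fell from 2325 to 699 with the skeletal muscle covariate and to 976 with the red blood cell covariate.

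Among inducers of these chemokines and lymphoid stroma genes 9 of 13 tested were called higher and 0 lower (2 lower at an unadjusted limma p under 0.05), with a median log2 fold change of 0.92. *Relb*, a subunit of noncanonical NF-kB, had the smallest p, with a log2 fold change of 1.09. *Vcam1* and *Icam1*, adhesion molecules of activated endothelium and stroma, had log2 fold changes of 1.66 and 1.20, *Nfkb2* 0.98, and *Il7*, a stromal survival factor for lymphocytes, 0.66. The receptors for lymphotoxin and TNF were not called: *Ltbr* was at 88.3 ± 6.37 and 71.5 ± 5.67 TPM and *Tnfrsf1a* at 121 ± 8.97 and 99.1 ± 7.30 TPM (SD, n = 3 each), with log2 fold changes of -0.30 and -0.28 and limma adjusted p of 0.0535 and 0.0622. Both, and no other gene of the list, were called lower with trimmed-mean scaling (log2 fold changes of -0.44 and -0.42, limma adjusted p of 0.00639 and 0.00756), with quantile normalization and with a replicate block. *Madcam1*, the addressin of follicular and mucosal vessels, was listed at 0 TPM in every control library and averaged 0.0567 TPM in the LIGHT group. With the skeletal muscle covariate 5 genes of the list were called higher, and with the red blood cell covariate 7. Over all genes tested these numbers were 699 and 976, against 2325 without a covariate. Of 4 tested markers of fibroblastic reticular cells, which belong to lymphoid stroma, 0 were called higher and 0 lower. Their log2 fold changes were 0.55 for *Ch25h*, 0.37 for *Il33*, 0.16 for *Bst1* and -0.59 for *Grem1*. Only in *Ch25h* did all LIGHT libraries lie above the controls.

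Of the genes for signalling and movement downstream of the receptors, 14 of 17 tested (82.4%) were called higher and 0 lower (0 lower at an unadjusted limma p under 0.05), with a median log2 fold change of 0.66. *Was*, *Prex1*, *Plcb2*, *Elmo1* and *Arrb1* had the smallest p, with log2 fold changes of 0.98, 0.90, 0.84, 0.86 and 0.83. *Was* and *Elmo1* act in actin remodelling, *Prex1* activates Rac, and *Arrb1* encodes an arrestin that desensitises receptors. Most are expressed by leukocytes at large, whose pan-leukocyte markers were between 352 and 552 TPM in summed level in control and between 832 and 1071 TPM in the LIGHT group. Their part in these calls was not tested. The 3 genes without a call were the kinase genes *Grk2* and *Grk6* and the G protein subunit gene *Gnai3*, although all LIGHT libraries lay above the controls in *Grk2*. *Gnai2*, another broadly expressed G protein subunit gene, was called higher, at means of 214 and 279 TPM, with a log2 fold change of 0.38 and an adjusted p of 0.00923 from limma. With the skeletal muscle covariate 7 genes of the list were called higher, and with the red blood cell covariate 6. Over all genes tested these numbers were 699 and 976, against 2325 without a covariate.

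In the lymphocyte homing list 11 of 15 tested genes were called higher and 0 lower (0 lower at an unadjusted limma p under 0.05), with a median log2 fold change of 0.63. *Selplg*, the P-selectin ligand, rose from 29.3 to 69.2 TPM, *Il7r* from 4.88 to 10.4 TPM, *Itgb2* from 27.9 to 53.4 TPM, *Chst2*, a sulfotransferase of high endothelial venules, from 1.21 to 2.89 TPM, and *Itgal* from 9.14 to 20.8 TPM. *Klf2*, a transcription factor that drives *S1pr1*, and *S1pr1* itself missed the threshold (limma adjusted p of 0.0513 and 0.265). *Glycam1*, an addressin of high endothelial venules, was listed at 0 TPM in every control library and averaged 0.207 TPM in the LIGHT group. The number of calls was 5 without LIGHT replicate 2 or LIGHT replicate 3, 6 without control replicate 3 and 7 without control replicate 2. It was 4 with the skeletal muscle covariate and 5 with the red blood cell covariate. Over all genes tested these numbers were 699 and 976, against 2325 without a covariate. *Selplg*, *Il7r*, *Itgb2* and *Itgal* are leukocyte genes, and the pan-leukocyte and T cell markers given above were higher in the same libraries, a part in these calls that was not tested.

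**Figure D5:**
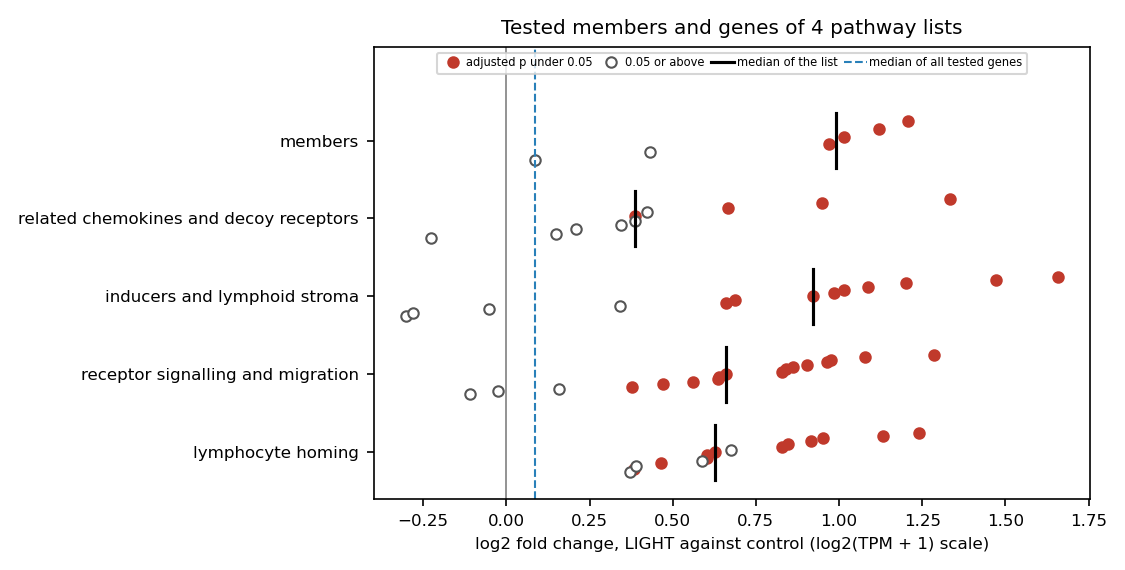
Log2 fold change, LIGHT against control on the log2(TPM + 1) scale (horizontal axis), of the tested members and of the tested genes of the 4 pathway lists, filled red where the adjusted p was under 0.05, with a black bar for the median of each list and a dashed blue line for the median of all genes tested (0.09). The list medians run from 0.39 to 0.99.

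Over all genes tested the median log2 fold change was 0.09 with the deposited TPM and became -0.04 under either rescaling. Relative to the deposited median, the changes were 1.12 for *Ccl19*, 1.03 for *Ccl21a*, 0.93 for *Ccr7*, 0.88 for *Cxcl12*, 0.35 for *Ackr3* and 0.00 for *Cxcr4*. Of all calls, 76.6% were in the higher direction with the deposited values, against 44.95% with trimmed-mean scaling and 43.6% with quantile normalization. *Ccl19*, *Ccl21a* and *Ccr7* stayed called higher under both.

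The genes with the most similar profile over the 6 libraries were found by Pearson's r of log2(TPM + 1), which for genes that differ between the groups mostly repeats the group difference. For *Ccl19* these were *Plekha4*, *Nkx2-3* and *Ptger3* (r of 0.998, 0.997 and 0.995), of which *Nkx2-3*, a homeobox gene of spleen and gut-associated vessels, averaged 0.93 and 2.69 TPM. For *Ccl21a* they were *Csrp2*, *Pla2g15* and *Ivd* (0.997, 0.996 and 0.994), for *Ccr7* *Tprgl*, *Zbtb7c* and *Faah* (0.999, 0.999 and 0.998), for *Cxcl12* *Boc*, *Gnpat* and *Stk11* (0.995, 0.993 and 0.993), for *Ackr3* *Rbm24* and *Trim45* (0.993 and 0.992) and for *Cxcr4* *Cd101*, *Cptp* and *Fibp* (0.970, 0.956 and 0.952). Among the members, *Ccl19* had r of 0.93, 0.94 and 0.92 with *Ccl21a*, *Ccr7* and *Cxcl12*, while *Cxcr4* had r between -0.10 and 0.37 with the other tested members. With 6 libraries shared by all pairs, these values describe the profiles only.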

How the data were processed

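Bulk RNA-seq of 3 control and 3 LIGHT tongue tumours was analysed. Per the labels' protocols, ribosomal RNA was removed from total RNA. HISAT, Bowtie2 and GRCm38.p6 are listed, without roles, in the submitters' processing notes. Quantifier, annotation, filters and read length were not given in the sources used here. A table deposited by the authors holds TPM, 1 column per library per the file headers. Depth is unknown, so no counting interval is given. Each column sums to 1 total, so a rise of abundant genes lowers the rest.

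The fit used limma 3.58.1 in R 4.3.3 with a mean-variance trend on log2(TPM + 1), for the 13167 of 18437 genes that reached 1 TPM in 3 libraries, two-sided, with Benjamini-Hochberg adjustment over all genes tested. Where a library was left out, the filter used the remaining 5. A gene under 1 TPM throughout control was tested only through its LIGHT libraries. The limma script was tested on simulated data. Members and lists were chosen with earlier results of these data known. Beside the 8 members, up to 5 genes per pathway list were named by smallest p, and up to 3 genes per tested member by correlation, without provisional gene models (2 genes are not reported here); other named genes were chosen after their values were seen. Ratios had exact permutation tests. Alternatives were 2 pseudocounts, 2 filters, 2 scalings, 2 variance models, a replicate block, 2 covariates, each library left out, and, added later, *Ccl21a* summed with its copies. Motifs and sequences came from RefSeq (GRCm38.p6) and GENCODE M21.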

Additional observations from a re-analysis of the deposited data

How the results depend on the processing

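The calls of *Ccr7* held under all 17 alternatives run for it, that of *Ccl21a* under 17 of 18 and that of *Ccl19* under 15 of 17. *Ccr7* and *Ccl19* failed the filter at 5 TPM and were not tested with it. With the skeletal muscle covariate *Ccl19* had a log2 fold change of 1.28 (adjusted p = 0.0846), *Ccl21a* 0.94 (0.05025) and *Cxcl12* 1.01 (0.219). With the red blood cell covariate *Ccl19* had 0.83 (0.0546) and *Cxcl12* 0.66 (0.243). *Cxcl12* had 0.97 without a filter on low values (0.0829), with the filter at 5 TPM (0.0508), without the trend (0.0543), with robust limma (0.0834) and with the replicate block (0.0852), 0.84 after trimmed-mean scaling (0.0722), 0.87 after quantile normalization (0.0755), and 0.66 to 1.20 with 1 library left out (0.0297 to 0.145). The cause was not tested. *Cxcr4* changed sign after trimmed-mean scaling (-0.045), quantile normalization (-0.011) and without control replicate 1 (-0.021), over a range of -0.021 to 0.23 with 1 library left out, and *Cxcr5* without control replicate 3 (-0.02) or LIGHT replicate 3 (-0.028), over -0.028 to 0.081. The *Ccl21a* to *Ccr7* ratio difference was -0.24 and -0.057 with pseudocounts of 0.1 and 0.5, and the *Ccr7* to T cell one 0.0084 with 0.1. With 1 library left out the differences that changed sign ran from -0.086 to 0.22 (*Ccl21a* to *Ccr7*), -0.13 to 0.20 (*Ccl19* to *Ccl21a*), -0.085 to 0.30 (*Ccl19* to mature dendritic cells), -0.26 to 0.036 (*Ccr7* to mature dendritic cells) and -0.25 to 0.0026 (*Ackr3* to blood endothelium); none of the groups in these ratios was separate to begin with.

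The number of members called higher was 1 with the filter at 5 TPM (fewer members tested), 1 and 2 with the muscle and red blood cell covariates, and 3 to 4 with 1 library left out. Over all genes the numbers higher and lower, 2325 and 712, were 1399 and 1811 after quantile normalization, 699 and 103 with the muscle covariate, 976 and 207 with the red blood cell covariate, 1145 to 1888 and 314 to 773 with 1 library left out, and 2005 were lower after trimmed-mean scaling. Same-numbered samples had deviation correlations of 0.37, 0.24 and 0.0099, so the numbers were not taken as pairs, and not every sample correlated best with its own number. The replicate block gave 2325 and 907, and 2 inducer genes lower, and with it *Cxcl12* alone among the members lost its call. Related chemokines higher numbered 2 without a filter, after either scaling and with either covariate, and 1 to 3 with 1 library left out. Inducer genes lower numbered 2 after trimmed-mean scaling or quantile normalization, 1 with robust limma and 0 to 1 with 1 library left out. Signalling genes higher numbered 7 and 6, and inducer genes 5 and 7, with the muscle and red blood cell covariates. Homing genes higher numbered 7 with the filter at 5 TPM or quantile normalization, 4 and 5 with the covariates, and 5 to 10 with 1 library left out. Sequencing depth is unknown, so how far it limits *Cxcl13*, *Cxcr5* and the B cell genes, which lie under or near 1 TPM, was not tested.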
